A study of Mus musculus with 8 samples.

Results

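Cholesterol and fatty acid synthesis was followed here through 38 genes, all of which were found among the 15917 genes of the count table and all of which passed the filter on low counts. They were taken by symbol and fall into 5 groups by role: 7 enzymes of the mevalonate pathway, 11 enzymes from squalene to cholesterol, 5 genes of the SREBP control system, 7 genes of cholesterol esterification, efflux and its LXR receptors, and 8 genes of fatty acid synthesis and desaturation. The first 2 groups together are called the 18 sterol enzymes below. mRNA was sequenced from eosinophils, the granule-bearing leukocytes of type 2 immunity, purified from the blood of C57BL/6 mice. The growth protocol describes the animals as IL-5 transgenic (NJ.1638), a line with very many blood eosinophils, whereas the genotype label of all 8 libraries reads WT, and the labels do not resolve this. Lymphocytes were removed with CD90 and B220 beads, and all cells were then cultured for 18 h in medium with fetal bovine serum. The treatment protocol describes separate experiments. In the first CN received no cytokine and E1 received IFN-γ and TNF-α at 15 ng/mL, which the label does not split between the 2 cytokines. In the second E0 received IL-5 at 10 ng/mL, and E2 received IL-5, GM-CSF and IL-4 at 10 ng/mL with IL-33 at 30 ng/mL. Each group held 2 libraries, replicates 1 and 2, and the labels do not say which animals or cultures they came from, so the p-values measure only the spread between these libraries. That spread includes a difference of sex-linked transcripts described below.

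Animal cells make cholesterol from acetyl-CoA through mevalonate, squalene and lanosterol, and the genes of nearly every step are switched on together by the transcription factor SREBP-2. When the endoplasmic reticulum holds enough sterol, INSIG proteins retain SCAP and SREBP there and the enzymes' transcription drops. SREBP-1 drives the fatty acid branch in the same way, while the oxysterol-activated receptors LXRα and LXRβ switch on cholesterol export through the ABC transporters and raise SREBP-1c. In leukocytes these routes supply membrane lipid, and activated macrophages are known to change them.

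Depth ran from 60809057 to 95065752 counts per library, so that none of the 38 genes was at 0 counts in any library. Levels are given as CPM, counts scaled to a common library size, with TMM factors that correct for differences in library composition. The 10 eosinophil markers listed, among them Ccr3 and Siglecf, summed to 5584 to 7397 CPM in CN, E1 and E0. In E2 they summed to 4135 and 4176 CPM. Markers of monocytes, macrophages and dendritic cells (13 genes) summed to 700 to 1277 CPM over the libraries, and those of neutrophils (11 genes) to 930 to 3471 CPM. In E0 replicate 2 the median neutrophil marker, at 134 CPM, stood above the median eosinophil marker, at 84.5 CPM. The eosinophil median was the higher in every other library. Transcripts listed for other leukocytes were thus present, and purity was not measured here. In every group replicate 1 held the Y-linked Ddx3y (62.5 to 95.6 CPM) and replicate 2 had none of it and held Xist (796 to 1142 CPM). The haemoglobin transcript Hbb-bs was also higher in replicate 1 of all 4 groups, at 4.29 to 20.5 CPM against 0.12 to 0.95 CPM.

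Per kilobase of exon, the most abundant of the 38 transcripts was Acly, which encodes the ATP-citrate lyase that supplies cytosolic acetyl-CoA to both branches, with a mean over the 8 libraries of 84.1 CPM per kb. Srebf2, the gene of SREBP-2, followed at 55.9 CPM per kb, then Nr1h2 (LXRβ) at 36.0, Mvd at 35 and Scap at 27.7 CPM per kb. The lowest were the desaturase genes Fads2 (0.23 CPM per kb) and Scd1 (0.51), the elongase gene Elovl6 (0.37) and Nr1h3, the gene of LXRα (0.78). The LXRβ gene therefore stood far above the LXRα gene in these cells, at 36.8 ± 1.52 against 0.502 ± 0.061 CPM per kb in CN (mean ± SD, n = 2).

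The sterol enzymes differed between the 2 replicates of the first experiment, in untreated and treated cells alike. In CN all 18 were higher in replicate 1 than in replicate 2 (49.8% of all genes tested were), and 12 were at least 1.5-fold higher, a gap shown by 5.22% of all genes tested. In E1 17 of 18 were higher in replicate 1 (53.9% of all genes), and 13 were at least 1.5-fold higher, against 4.29% of all genes. The gap reached 1.5-fold in both groups for 11 of 18 enzymes, against 1.35% of all genes. The median ratio of replicate 1 to replicate 2 was 2.03 in CN and 1.64 in E1.

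In the second experiment the same enzymes were close between replicates. None of 18 in E0 and 1 of 18 in E2 (Dhcr7) had replicate 1 at least 1.5-fold higher, where 6.07% and 4.17% of all genes did, and the median ratios were 0.98 and 0.99. The median coefficient of variation of the 18 enzymes was 48.1% in CN and 34.1% in E1, but 3.28% in E0 and 4.93% in E2. Over all genes tested it was 7.66%, 9.05%, 6.58% and 6.09% in the same order. The Y-linked, Xist and haemoglobin differences stood between replicates 1 and 2 in both experiments, and the enzymes' gap only in the first by these counts. Whether either of them has a part in it was not tested. IL-5 was given in both groups of the second experiment and in neither of the first, so IL-5 and experiment cannot be told apart here.

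**Figure D1:**
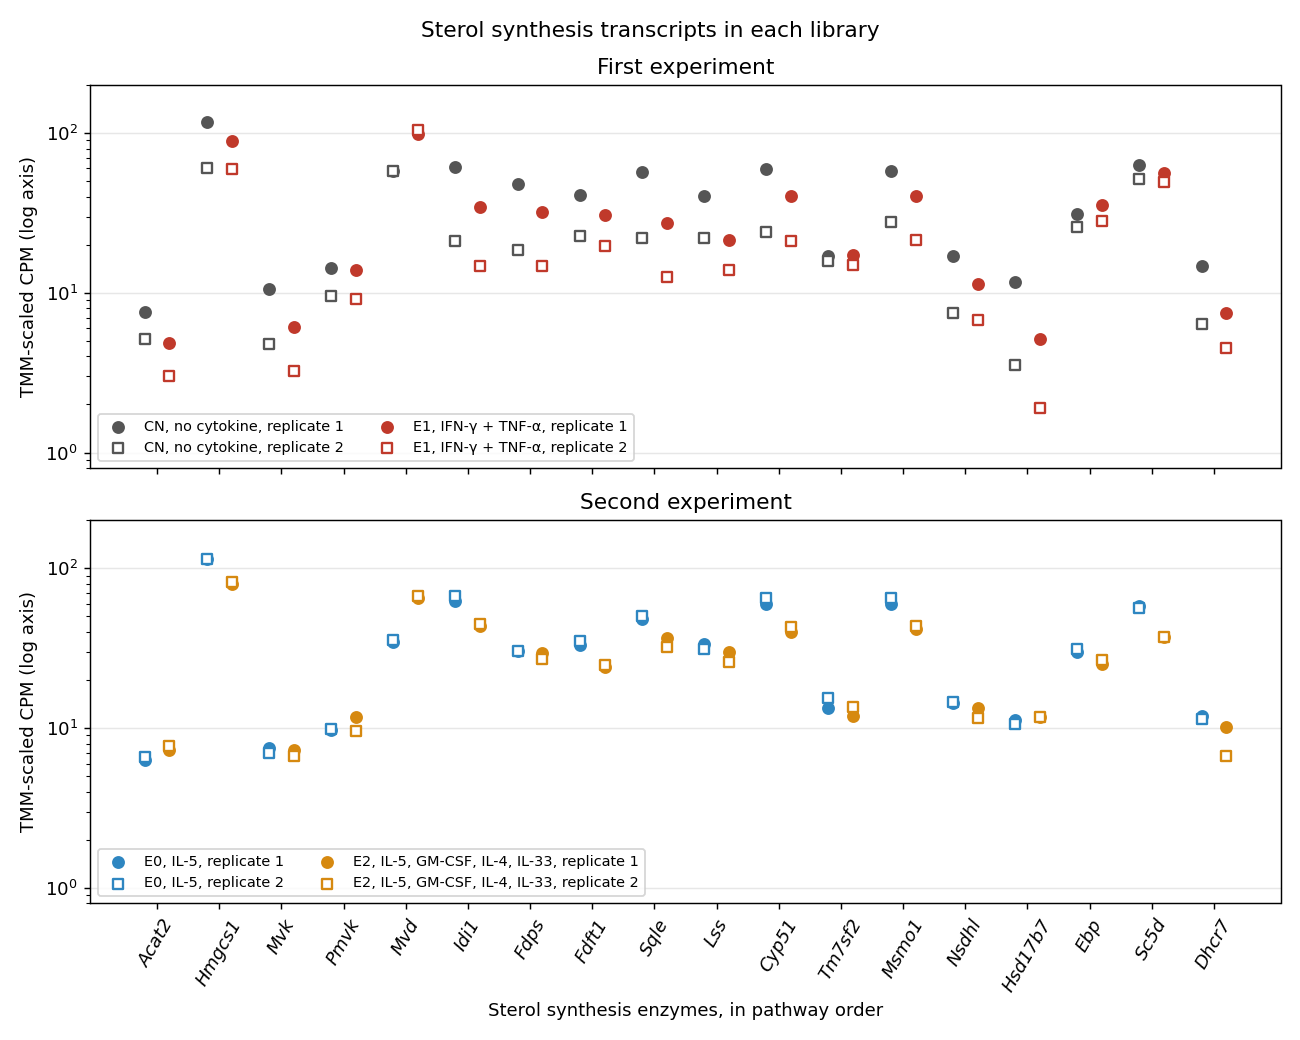
TMM-scaled CPM (log axis) of the 18 sterol enzymes in pathway order, with CN and E1 in the upper panel and E0 and E2 in the lower one. Filled circles are replicate 1 and open squares replicate 2. In the upper panel circles lie above squares for every enzyme but Mvd, and in the lower panel circles and squares nearly coincide.

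Single enzymes show the size of the gap. Hmgcs1, the HMG-CoA synthase at the entry to the pathway, stood at 118 and 60.2 CPM in CN and 88.9 and 59.3 CPM in E1, and at 115 and 115 CPM in E0 and 80.1 and 81.7 CPM in E2. Idi1, which isomerises isopentenyl diphosphate, stood at 61.0 and 21.0 CPM in CN and 34.2 and 14.7 CPM in E1, and at 62.3 and 66.7 CPM in E0 and 43.3 and 44.5 CPM in E2. Sqle, the squalene epoxidase that makes the first oxygen-dependent step, stood at 57.2 and 22.1 CPM in CN and 27.4 and 12.6 CPM in E1, and at 47.9 and 50.2 CPM in E0 and 36.7 and 32.2 CPM in E2. For all 3 the first replicate of CN was the highest library of the first experiment and the second replicate of E1 the lowest. The widest gap was in Hsd17b7, a 3-ketosteroid reductase of the later steps, with 11.7 and 3.54 CPM in CN and 5.15 and 1.91 CPM in E1, a ratio of 3.29 and 2.70. Its E0 and E2 libraries held 10.6 to 11.8 CPM.

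Some enzymes had no gap of 1.5-fold in either group. Mvd, the mevalonate diphosphate decarboxylase, differed between the CN replicates by less than the printed digits show (57.6 and 57.6 CPM, counted above as higher in replicate 1 on the unrounded values) and lay slightly higher in replicate 2 of E1. Tm7sf2 (a sterol reductase), Ebp (a sterol isomerase) and Sc5d (a sterol desaturase) had ratios of 1.08 to 1.23 in CN and 1.14 to 1.25 in E1. Among the other groups, the gap reached 1.5-fold in CN for Insig1 (2.05 in CN and 1.62 in E1) and Srebf2 (1.62 and 1.40). It did so too for the fatty acid synthase gene Fasn (2.24 and 1.56) and was widest for the desaturase gene Scd2 (3.22 and 2.66). Insig2 (0.99 and 1.04) and Scap (1.08 and 1.12) did not reach it. The 8 fatty acid genes kept a smaller difference between replicates in the second experiment. Their median ratio was 1.23 in E0 and 1.31 in E2, against 0.99 over all genes in both, and Scd2 stood at 1.28 and 1.48. None of the 7 genes of esterification, efflux and LXR had replicate 1 at least 1.5-fold above replicate 2 in any group, and Soat2 went the other way (0.48 in CN and 0.59 in E1).

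**Figure D2:**
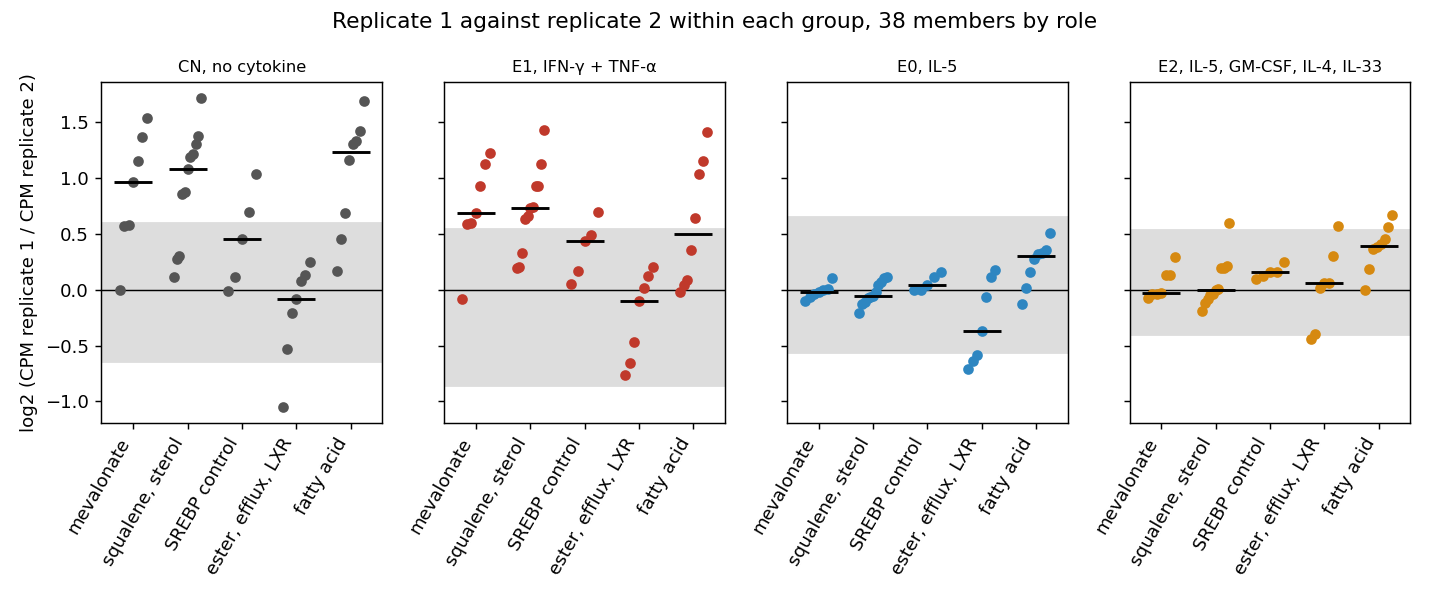
log2 ratio of replicate 1 to replicate 2 for each of the 38 genes, by role and group, where a short black line is the median of a role and the grey band holds the 5th to 95th percentile of all genes tested. Most mevalonate, squalene and fatty acid genes lie above the band in CN, and nearly all 38 lie inside it in E0 and E2.

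The promoter windows of these genes are shown so that members with a gap of at least 1.5-fold in CN and members below that limit can be read side by side. RefSeq windows on GRCm38.p6, from 250 bases before to 50 bases after the transcription start, were matched for 30 of the 38 genes. Of 4 motifs searched on both strands, CCAAT, the box bound by NF-Y, a partner of SREBP, was present in the windows of 14 of 15 sterol enzymes with a window (93.3%) and 22 of all 30 members (73.3%). It was present for 41.1% of the 27025 genes with such windows and for 42.7% of those tested here. The sterol element TCACNCCAC was present in 1 member only, Hmgcs1, against 1.44% of all genes and 1.46% of those tested here. The E-box CACGTG was present in 6 of 30 members (20.0%), against 8.09% of all genes and 11.5% of those tested here. The direct repeat to which LXR binds with RXR, DR4, was present in none of 30, with 0.0148% over all genes and 0.00968% over those tested here. No motif overlaps another in the 4 windows below. Capitals mark the motifs, and ATTGG is CCAAT read on the other strand.
Hmgcs1, chr13:119690101-119690400, plus strand: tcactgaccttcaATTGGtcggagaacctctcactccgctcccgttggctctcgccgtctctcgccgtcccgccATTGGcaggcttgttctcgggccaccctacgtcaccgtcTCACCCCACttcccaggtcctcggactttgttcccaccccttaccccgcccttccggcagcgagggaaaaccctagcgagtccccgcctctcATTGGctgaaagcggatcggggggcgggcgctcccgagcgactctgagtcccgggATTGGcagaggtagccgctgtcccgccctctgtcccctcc
Insig1, chr5:28071162-28071461, plus strand: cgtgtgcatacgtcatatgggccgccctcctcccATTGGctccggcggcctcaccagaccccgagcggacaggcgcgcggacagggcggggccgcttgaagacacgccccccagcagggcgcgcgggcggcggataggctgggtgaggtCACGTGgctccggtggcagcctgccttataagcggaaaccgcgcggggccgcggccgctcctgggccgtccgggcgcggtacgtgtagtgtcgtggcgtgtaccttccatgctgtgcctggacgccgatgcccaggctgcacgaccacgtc
Mvd, chr8:122443373-122443672, minus strand: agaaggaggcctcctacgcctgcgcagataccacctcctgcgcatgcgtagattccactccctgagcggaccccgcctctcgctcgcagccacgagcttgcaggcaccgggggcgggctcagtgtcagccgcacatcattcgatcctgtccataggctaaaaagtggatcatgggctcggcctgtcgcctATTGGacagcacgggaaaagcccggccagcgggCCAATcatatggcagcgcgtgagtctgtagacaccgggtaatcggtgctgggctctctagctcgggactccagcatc
Sc5d, chr9:42264251-42264550, minus strand: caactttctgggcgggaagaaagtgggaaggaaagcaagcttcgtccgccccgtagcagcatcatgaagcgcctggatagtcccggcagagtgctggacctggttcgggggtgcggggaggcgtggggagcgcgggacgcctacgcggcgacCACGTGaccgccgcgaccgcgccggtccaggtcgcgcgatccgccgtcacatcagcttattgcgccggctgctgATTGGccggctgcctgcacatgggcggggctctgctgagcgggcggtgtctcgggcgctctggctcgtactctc
In CN replicate 1 stood at least 1.5-fold above replicate 2 for Hmgcs1 (1.96) and Insig1 (2.05). For Mvd (1.00) and Sc5d (1.23) the ratio was below that limit. All 4 windows hold at least 1 CCAAT box, Insig1 and Sc5d hold an E-box, and TCACCCCAC stands in Hmgcs1 alone. A match is a string of letters in this window and says nothing of binding. Only these exact strings were searched, so a missing match does not show that a variant site is absent.

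Positions below are those of GENCODE M21 on mm10, the build the submitters name. In E1 versus CN 2 of the 38 genes rose and 1 fell, where 9.19% of all genes tested were called higher and 8.08% lower. Of all genes called 53.2% were higher, a share of 38.6% when libraries were scaled by their totals only, which also called Scap lower. Mvd (chr8:122433601-122443422) rose from 57.6 and 57.6 CPM in CN to 98.5 and 104 CPM in E1, which was 1.76-fold (log2 fold change 0.81 ± 0.06 SE, edgeR adjusted p = 5.67e-05). Nr1h2 (chr7:44549616-44553951), the LXRβ gene, rose from 120 and 127 CPM to 185 and 169 CPM (log2 fold change 0.52 ± 0.07, edgeR adjusted p = 0.000902). Acly (chr11:100476353-100528000) fell from 598 and 533 CPM to 349 and 355 CPM (log2 fold change -0.68 ± 0.08, edgeR adjusted p = 0.000497). The libraries of the 2 groups did not overlap for any of these 3 genes, and all 3 kept their call when any library was left out.

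For the sterol enzymes other than Mvd the test called no change in E1 versus CN. CN and E1 libraries overlapped for 15 of the 18, Mvd was higher in both E1 libraries, and Acat2, an acetoacetyl-CoA thiolase, and Lss, the lanosterol synthase, were lower in both. Such separation was found for 26.5% of all genes upward and 27.5% downward. The 18 enzymes had a median log2 fold change of -0.46, while that of all genes was -0.01. The order of libraries was the same for most: CN replicate 1 above E1 replicate 1, then CN replicate 2, then E1 replicate 2, in 13 of 18 enzymes. Within a replicate number, E1 lay below CN for 15 of 18 enzymes in both replicates. Examples are Lss at 40.2 and 21.9 CPM in CN against 21.5 and 13.9 in E1 (log2 fold change -0.81 ± 0.28, edgeR adjusted p = 0.0948) and Sqle above (-0.99 ± 0.45, edgeR adjusted p = 0.185). The share of all genes with this order of libraries, or with E1 below CN in both replicates, was not counted. The split by replicate number was chosen after values were seen. Hmgcs1, the most abundant enzyme without a call, had a log2 fold change of -0.26 ± 0.28 (edgeR adjusted p = 0.595). With the replicate number, which also separates the Y-linked and Xist transcripts, as a block in the edgeR fit, 12 sterol enzymes were called lower, Sqle, Lss and Idi1 among them, and Mvd higher. That fit has 2 residual degrees of freedom and called 17.5% of all genes higher and 17.2% lower.

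The direction of this group depended on single libraries. Without CN replicate 1 the median of the 18 enzymes was 0.17, and Hmgcs1 was at 0.31. Without E1 replicate 1 the median was -1.0, and Acat2 joined Acly as a second member called lower. Without CN replicate 2, 9 members were called lower, where 6.13% of all genes were, and the 5 sterol enzymes among them were Mvk, Sqle, Lss, Hsd17b7 and Dhcr7. The CN group then holds 1 library, which the model assumes to vary like the other groups.

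In E2 versus E0 6 of the 38 genes rose and 4 fell, where 17.0% of all genes tested were called higher and 18.5% lower. Without E0 replicate 1 or E2 replicate 1 fewer members were called higher, as were fewer of all genes, and Mvd, Abcg1 and Acly kept their call. Among the sterol enzymes Mvd rose again, from 34.7 and 35.6 CPM in E0 to 65.0 and 67.0 CPM in E2, which was 1.88-fold (log2 fold change 0.91 ± 0.06, edgeR adjusted p = 3.31e-05). Sc5d (chr9:42251595-42264256), the lathosterol desaturase, fell from 57.9 and 56.4 CPM to 36.9 and 36.9 CPM (log2 fold change -0.63 ± 0.11, edgeR adjusted p = 0.00333). The libraries of the groups do not overlap for either gene. The remaining 16 enzymes were not called in the fit over 8 libraries, whose estimate of spread for these genes includes the replicate gap of the first experiment.

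Even so, most of those 16 separated by group within the second experiment. Of the 18 enzymes, 12 were lower in both E2 libraries than in both E0 libraries, against 37.2% of all genes, and 3 were higher in both (Acat2, Mvd and Hsd17b7), against 35.9%. The squalene-to-cholesterol steps contributed 9 of 11. Cyp51, the lanosterol demethylase, stood at 59.8 and 65.1 CPM in E0 and 39.8 and 43.2 CPM in E2 (log2 fold change -0.59 ± 0.40, edgeR adjusted p = 0.286). Msmo1, the methylsterol oxidase, stood at 60.1 and 64.9 CPM in E0 and 41.9 and 43.4 CPM in E2 (-0.55 ± 0.36, edgeR adjusted p = 0.264). Hmgcs1 had a log2 fold change of -0.51 ± 0.28 (edgeR adjusted p = 0.202).

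Fitted on the 4 libraries of the second experiment alone, the count for E2 versus E0 was 9 members higher and 12 lower, where 19.8% and 19.9% of all genes were called. In that fit 7 sterol enzymes were called lower, namely Hmgcs1, Idi1, Fdft1, Sqle, Cyp51, Msmo1 and Sc5d, and Mvd was called higher. Hmgcs1 then had a log2 fold change of -0.50 ± 0.05 (edgeR adjusted p = 0.000568) and Cyp51 of -0.58 ± 0.08 (edgeR adjusted p = 0.00233). The values hardly moved between the 2 fits, and the standard error of Hmgcs1 went from 0.28 to 0.05. With the replicate number as a block over 8 libraries, 10 sterol enzymes were called lower and Mvd higher in E2 versus E0, where 27.5% of all genes were called lower and 26.0% higher. For E1 versus CN the fit on its own 4 libraries called the same 3 members as the fit over 8, where 7.66% of all genes were called higher and 4.98% lower.

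**Figure D3:**
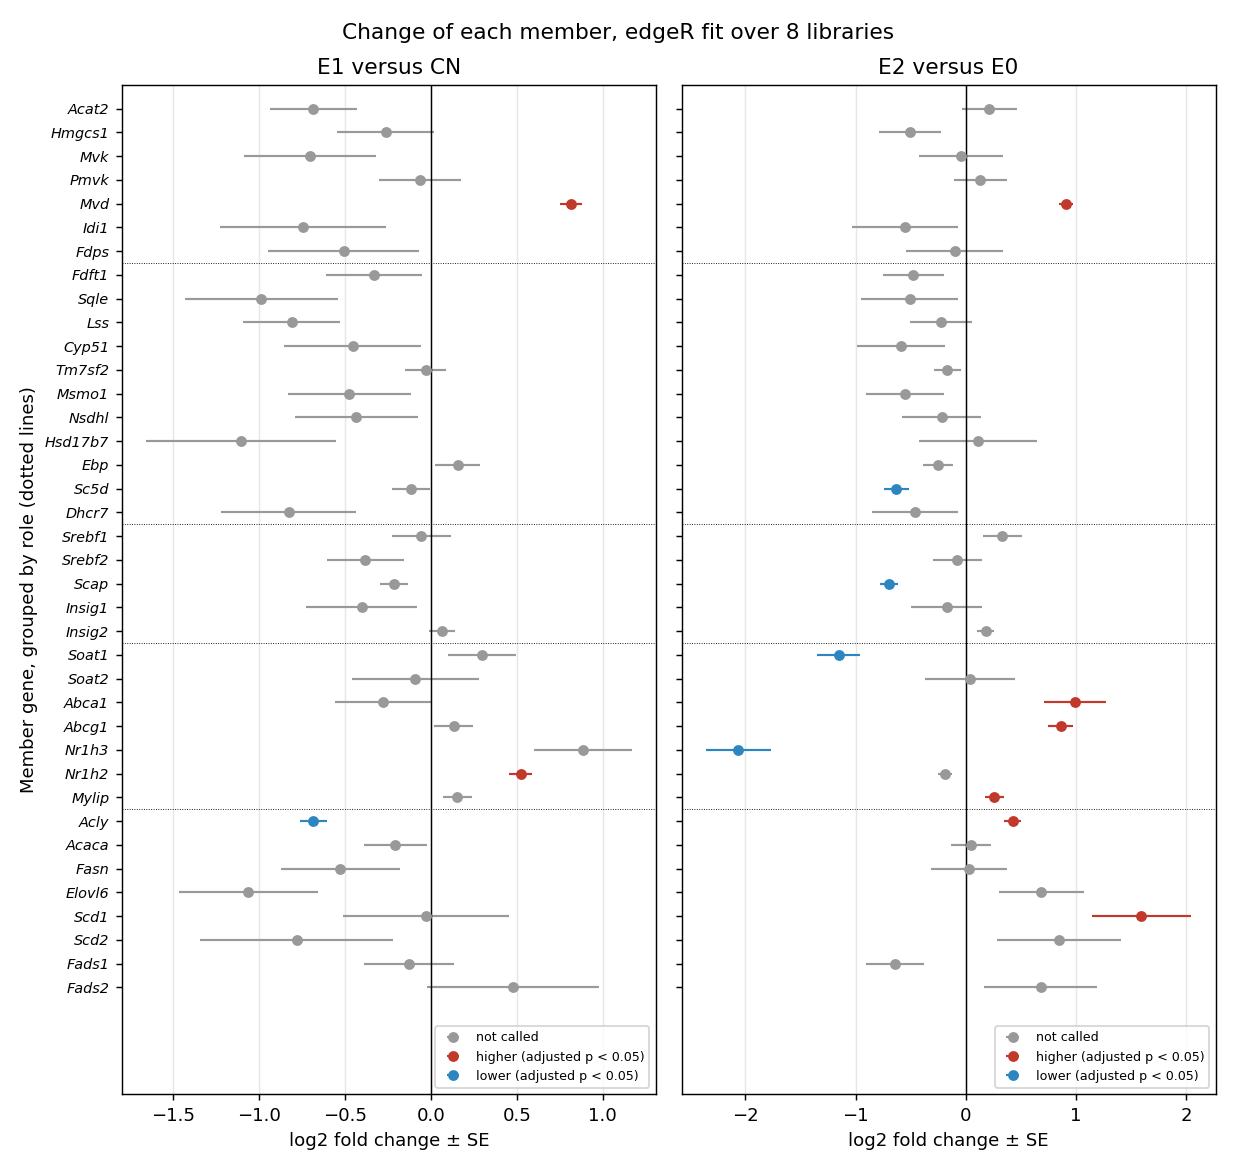
log2 fold change ± SE of the 38 genes in E1 versus CN (left) and E2 versus E0 (right), from the edgeR fit over 8 libraries, with called genes in colour and roles separated by dotted lines. Mvd is the only sterol enzyme called in the left panel (0.81), and in the right panel Mvd (0.91) and Sc5d (-0.63) are called while most other sterol enzymes lie left of 0 with wide errors.

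Of the 5 SREBP control genes 1 was called in the fit over 8 libraries, lower in E2 versus E0, where 18.5% of all genes were. This was Scap (chr9:110333288-110384950), whose protein escorts SREBP out of the endoplasmic reticulum. It stood at 234 and 233 CPM in E0 and fell to 150 and 138 CPM in E2 (log2 fold change -0.70 ± 0.08, edgeR adjusted p = 0.000433). In CN and E1 it stood at 250 and 230 CPM and at 218 and 195 CPM (-0.22 ± 0.08, edgeR adjusted p = 0.114). The unnamed transcript 5830462I19Rik lies on the opposite strand within Scap and also fell in E2 versus E0 (-0.65, edgeR adjusted p = 0.00114). The strand setting of the counting is not given in the sources used here, so reads of the 2 cannot be told apart.

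Srebf2 was the most abundant control gene and was not called in either comparison. Its libraries held 554 and 342 CPM in CN and 401 and 286 CPM in E1, while those of the second experiment held 435 and 402 CPM in E0 and 419 and 375 CPM in E2. Srebf1, which encodes both SREBP-1a and SREBP-1c and is counted here as 1 gene, stood at 100 and 90.1 CPM in E0 and 126 and 113 CPM in E2 (0.33 ± 0.17, edgeR adjusted p = 0.175). It was called higher in the fit of the 4 libraries of the second experiment alone (0.34 ± 0.08, edgeR adjusted p = 0.0143), where 19.8% of all genes were. With the replicate block it was also called higher, where 26.0% of all genes were. Insig1, itself a target of SREBP, stood at 49.8 and 48.4 CPM in E0 and 47.2 and 39.8 CPM in E2 (-0.18 ± 0.32, edgeR adjusted p = 0.705). Insig2 lay between 17.2 and 20.5 CPM in all 8 libraries.

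Of the 7 genes of esterification, efflux and LXR, 3 rose and 2 fell in E2 versus E0, where 17.0% and 18.5% of all genes did. Abcg1 (chr17:31057675-31117988), a transporter that passes cholesterol to HDL, rose from 71.8 and 63.4 CPM in E0 to 135 and 110 CPM in E2 (log2 fold change 0.86 ± 0.11, edgeR adjusted p = 0.000865). Abca1 (chr4:53030787-53159895), the transporter that loads lipid-poor apolipoprotein A-I, rose from 8.88 and 11.5 CPM to 24.2 and 16.3 CPM (0.99 ± 0.28, edgeR adjusted p = 0.0269). Abca1 lost its call without E0 replicate 1 or without E2 replicate 1, with edgeR adjusted p up to 0.173. Mylip (chr13:45389742-45412022), a ubiquitin ligase induced by LXR, rose from 52.2 and 48.3 CPM to 60.4 and 59.8 CPM (0.26 ± 0.09, edgeR adjusted p = 0.0466), a call lost when any library of CN, E0 or E2 was left out (adjusted p up to 0.214).

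The receptor gene Nr1h3 and the esterifying enzyme gene Soat1 went the opposite way in the same comparison. Nr1h3 (chr2:91184061-91202834), the LXRα gene, fell from 2.58 and 4.22 CPM in E0 to 0.833 and 0.797 CPM in E2, a level 4.17-fold lower (log2 fold change -2.06 ± 0.30, edgeR adjusted p = 0.0012). Soat1 (chr1:156424525-156474331), which esterifies cholesterol for storage, fell from 35.5 and 53.4 CPM to 17.3 and 22.7 CPM (-1.15 ± 0.20, edgeR adjusted p = 0.00284). Both were highest in E0 replicate 2. Nr1h2, the most abundant gene of the group without a call here, stood at 94.8 and 99.0 CPM in E0. In E2 it stood at 86.9 and 83.2 CPM (-0.19 ± 0.07, edgeR adjusted p = 0.0579). It was called lower in the fit of the 4 libraries alone and with the replicate block.

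Macrophage and dendritic markers moved in the same libraries. Of the 13 measured, 9 fell in E2 versus E0 and 4 rose, where 18.5% of all genes fell and 17.0% rose. Their summed level was 880 and 1220 CPM in E0 and 950 and 934 CPM in E2. Apoe, a lipoprotein gene that macrophages express and LXR induces, stood at 71.9 and 133 CPM in E0 and 2.13 and 2.65 CPM in E2. None of the 13 was at 0 in E0 or E2, and in the whole table only Mrc1 in E1 replicate 2 was. Of the 11 neutrophil markers 5 fell and none rose in E2 versus E0 by edgeR, and their sum was 2773 and 3471 CPM in E0 and 930 and 1323 CPM in E2. None of the 11 was at 0 in any library. Of the 10 eosinophil markers 8 fell in E2 versus E0 and 1 rose. The part of any of these lists in the changes of Nr1h3 and Soat1 was not tested, and in bulk RNA fewer cells of a type and less RNA per cell cannot be told apart.

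In E1 versus CN this group had the Nr1h2 call only. Nr1h3 stood at 1.37 and 1.15 CPM in CN and 1.96 and 2.71 CPM in E1 (0.88 ± 0.28, edgeR adjusted p = 0.0716). Abcg1, the uncalled gene of the group with the highest mean CPM, stood at 99.3 and 115 CPM in CN and 118 and 117 CPM in E1 (0.13 ± 0.11, edgeR adjusted p = 0.498). Soat2, a second cholesterol acyltransferase, held 17.2 to 35.6 CPM in the first experiment and 2.69 to 4.19 CPM in the second, with replicate 2 higher in all 4 groups. That contrast lies between experiments, so cytokine and experiment cannot be told apart.

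Of the 8 fatty acid genes 2 rose in E2 versus E0, where 17.0% of all genes did. Acly rose from 368 and 365 CPM in E0 to 491 and 492 CPM in E2 (log2 fold change 0.42 ± 0.08, edgeR adjusted p = 0.00396), the reverse of its fall in E1. Scd1 (chr19:44394455-44407879), the stearoyl-CoA desaturase, rose from 2.41 and 1.69 CPM to 6.98 and 5.36 CPM (1.59 ± 0.45, edgeR adjusted p = 0.0262). The Scd1 call was lost when any library of E0 or E2 was left out (edgeR adjusted p up to 0.128). Its far more abundant paralog Scd2 stood at 71.8 and 56.0 CPM in E0 and 137 and 92.7 CPM in E2 (0.85 ± 0.56, edgeR adjusted p = 0.278). That estimate of spread includes the replicate gap of the first experiment. In the fit of the 4 libraries of the second experiment alone Scd2 was called higher (0.86 ± 0.19, edgeR adjusted p = 0.0135), where 19.8% of all genes were. Scd1 and Scd2 are similar in sequence, and how reads that map to several places were counted is not given in the sources used here.

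Fasn and Acaca, the synthase and the carboxylase that build palmitate, did not separate. Fasn stood at 73.6 and 66.0 CPM in E0 and 79.9 and 62.2 CPM in E2, and Acaca at 36.1 and 29.8 against 38.8 and 29.2 CPM. Elovl6, which extends palmitate, stood at 2.86 and 1.07 CPM in CN and 0.956 and 0.927 CPM in E1, and at 2.78 and 2.22 CPM in E0 and 4.26 and 3.75 CPM in E2. It was not called in either comparison in the fit over 8 libraries (edgeR adjusted p = 0.121 and 0.204). Fads1, a polyunsaturated fatty acid desaturase, was the one gene of the group lower in both E2 libraries, at 11.1 and 8.89 against 7.40 and 5.40 CPM (-0.64 ± 0.26, edgeR adjusted p = 0.0907). On the 4 libraries of the second experiment alone Elovl6 was called higher (0.69 ± 0.18, edgeR adjusted p = 0.0257) and Fads1 lower (-0.63 ± 0.19, edgeR adjusted p = 0.0382). In that fit 19.8% of all genes were called higher and 19.9% lower. The group's median log2 fold change was 0.55 in E2 versus E0 and -0.37 in E1 versus CN.

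**Figure D4:**
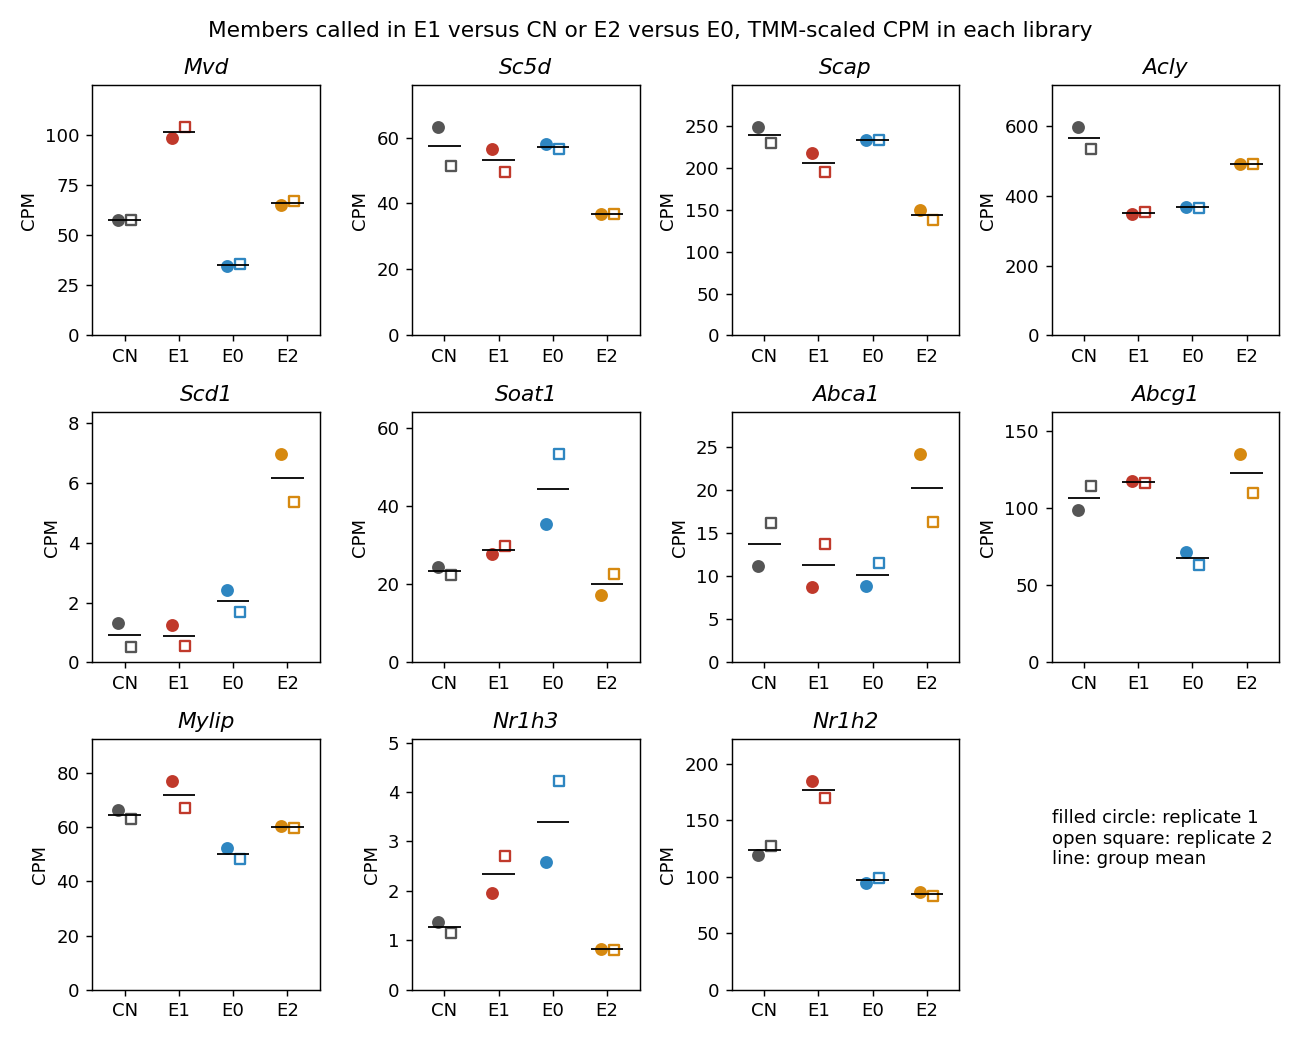
TMM-scaled CPM of the 11 genes called in E1 versus CN or in E2 versus E0, 1 panel per gene with its own axis from 0, for CN, E1, E0 and E2. Filled circles are replicate 1, open squares replicate 2 and lines the group means. Mvd is higher in E1 than in CN and in E2 than in E0, Acly is lower in E1 and higher in E2, and Nr1h3 is lowest in E2.

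The difference between the 2 responses, the change from E0 to E2 minus the change from CN to E1, was called for 8 members, 3 higher and 5 lower, where 25.2% of all genes were called in either direction. Acly differed by 1.11 ± 0.11 on the log2 scale (edgeR adjusted p = 0.000246), falling with IFN-γ and TNF-α and rising in E2. Abcg1 (0.73 ± 0.16, edgeR adjusted p = 0.0122) and Abca1 (1.27 ± 0.40, edgeR adjusted p = 0.0496) were the others higher. Nr1h3 differed by -2.95 ± 0.41 (edgeR adjusted p = 0.00139), Soat1 by -1.45 ± 0.28 and Nr1h2 by -0.71 ± 0.09 (edgeR adjusted p = 0.00637 and 0.00108). Scap (-0.48 ± 0.11, edgeR adjusted p = 0.0163) and Sc5d (-0.52 ± 0.16, edgeR adjusted p = 0.0448) completed the 5. The call of Abca1 was lost without CN replicate 2, E1 replicate 1, either E0 library or E2 replicate 1 and with DESeq2 size factors in edgeR. That of Sc5d was lost without any of these libraries or E2 replicate 2 and with library totals. That of Scap was lost without either E0 library or E2 replicate 2. The number of members called higher was 6 without CN replicate 2, and the number lower was 3 without either E0 library or E2 replicate 2. Mvd, which rose in both, showed no call for the difference (0.10 ± 0.09, edgeR adjusted p = 0.488).

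Mvd overlaps a gene on the opposite strand, Gm20388, along its whole length. Gm20388 held 13.3 to 20.3 CPM over the 8 libraries and was called in neither comparison (edgeR adjusted p = 0.428 and 0.262). Soat1 has Gm37648 on its opposite strand, at 0.756 CPM or less, which also fell in E2 versus E0 (-1.51, edgeR adjusted p = 0.00977). Lss has the antisense gene 4930483K19Rik, at 1.46 to 4.09 CPM, and Fdft1 overlaps the end of Ctsb. Reads of such pairs cannot be told apart where strand was not used.

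Around the 38 genes, 40 of 46 related genes in 6 further lists were in the table, and the other 6 were not analysed here. In E1 versus CN 4 of the 40 rose and 7 fell, where 9.19% and 8.08% of all genes did, and in E2 versus E0 8 rose and 7 fell, where 17.0% and 18.5% did. In E1 versus CN 6 of 11 neutrophil markers also fell and 1 rose, with a sum of 3043 and 2656 CPM in CN and 1789 and 1326 CPM in E1. Of the 13 macrophage and dendritic markers 4 rose and 4 fell there, with a sum of 893 and 700 CPM in CN and 1258 and 1277 CPM in E1. Their part in the changes given next was not tested. Of the 7 genes that process SREBP or degrade sterol-regulated proteins, such as the proteases Mbtps1 and Mbtps2, none was called in either comparison by edgeR.

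Of the 5 genes that release or store cholesterol, 3 rose and 1 fell in E1 versus CN, where 9.19% and 8.08% of all genes did. In E2 versus E0 1 rose and 3 fell, where 17.0% and 18.5% did. Npc2, which moves cholesterol out of the lysosome, rose from 204 and 228 CPM in CN to 423 and 421 CPM in E1 (log2 fold change 0.97 ± 0.07, edgeR adjusted p = 4.35e-05), and fell from 192 and 198 CPM in E0 to 126 and 125 CPM in E2 (-0.63 ± 0.07, edgeR adjusted p = 0.000383). Lipa, the lysosomal lipase that hydrolyses cholesteryl esters, rose in E1 (0.62 ± 0.11, edgeR adjusted p = 0.00574) and fell in E2 (-0.41 ± 0.11, edgeR adjusted p = 0.0201), the latter call being lost without E0 replicate 2 or either E2 library. Plin2, a lipid droplet coat protein, rose in E1 (0.70 ± 0.14, edgeR adjusted p = 0.00935) and in E2 (0.45 ± 0.14, edgeR adjusted p = 0.0334). The first call of Plin2 was lost without CN replicate 1, and the second without E0 replicate 1 or either E2 library, in the fit of the 4 libraries alone and with scaling by library totals. Nceh1, a cholesteryl ester hydrolase, fell in both (-0.50 ± 0.07 and -0.36 ± 0.07, edgeR adjusted p = 0.00104 and 0.00378).

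LXR targets outside the 38 genes did not share 1 direction. Apoe fell in E1 (-4.24 ± 0.37, edgeR adjusted p = 0.000107) and in E2 (-5.42 ± 0.38, edgeR adjusted p = 3.41e-05). Smpdl3a, a phosphodiesterase, rose in E1 (0.51 ± 0.09) and fell in E2 (-1.59 ± 0.09), with edgeR adjusted p = 0.00445 and 1.18e-05. Lpcat3, which places polyunsaturated fatty acids in phospholipids, fell in E1 (-0.47 ± 0.12) and rose in E2 (0.44 ± 0.12), with edgeR adjusted p = 0.0298 and 0.0226. Leaving out CN replicate 1 or E1 replicate 2, or fitting the 4 libraries of the contrast alone, ended the first call of Lpcat3, and leaving out either E0 library or E2 replicate 1 the second. Pltp, the phospholipid transfer protein, fell in E2 (-1.88 ± 0.16, edgeR adjusted p = 9.9e-05). Gpr183, the receptor for an oxysterol that guides leukocytes, fell in E1 (-1.34 ± 0.16, edgeR adjusted p = 0.000555), and Cyp27a1, the sterol 27-hydroxylase, fell in E2 (-2.30 ± 0.45, edgeR adjusted p = 0.00554).

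Of 9 further genes of fatty acid synthesis and elongation 4 rose and none fell in E2 versus E0 by edgeR, where 17.0% and 18.5% of all genes did. Hsd17b12, the 3-ketoacyl-CoA reductase, rose from 20.8 and 24.2 CPM in E0 to 62.9 and 65.1 CPM in E2 (1.51 ± 0.29, edgeR adjusted p = 0.00532). The dehydratases Hacd3 (1.18 ± 0.09, edgeR adjusted p = 4.17e-05) and Hacd2 (0.61 ± 0.11, edgeR adjusted p = 0.00396) rose as well. In E1 versus CN only Elovl7, an elongase gene, was called, lower (-1.24 ± 0.18, edgeR adjusted p = 0.00208). Of the 10 other SREBP targets 2 fell and none rose in E1 versus CN, where 8.08% and 9.19% of all genes did. In E2 versus E0 2 of the 10 rose and none fell, where 17.0% and 18.5% of all genes did. Aacs (-0.85) and Lpin1 (-0.56) fell in E1, and Lpin1 (0.60) and Acsl3 (0.39) rose in E2, with edgeR adjusted p = 0.00542, 0.0273, 0.0114 and 0.0191. The Acsl3 call was lost without any single library of E0 or E2, and those of Lpin1 without CN replicate 1, CN replicate 2 or E1 replicate 1 or in the fit of 4 libraries in the first comparison and without E0 replicate 2 or E2 replicate 1 in the second.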

How the data were processed

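Stranded mRNA libraries were made with the TruSeq Stranded mRNA kit, per the labels' protocols. The authors deposited unnormalized counts, 1 row per Ensembl gene. STAR, featureCounts and the mm10 build are named in the submitters' processing notes. No version, annotation, strand setting or handling of multi-mapping reads was given in the sources used here. A nameless row among the 15918 repeated the column totals (100% of the gene counts) and was left out. Symbols were matched for 15730 of 15917 IDs. The test used edgeR 4.0.16 under R 4.3.3: filterByExpr (4 genes removed, 15913 tested), TMM scaling, 1 mean per group over 8 libraries (4 residual degrees of freedom), the two-sided quasi-likelihood F test and Benjamini-Hochberg adjustment over all genes, called below 0.05. This test gives no standard error, so each SE is the absolute log2 fold change divided by the square root of the F statistic. The alternatives were DESeq2 1.42.0 and its size factors, library totals, no filter, the 4 libraries of a contrast, the replicate block and each library left out in turn. On simulated counts for E1 versus CN (15916 genes), 71 of 100 genes changed 2-fold and 99 of 100 changed 4-fold were recovered, with 12 false calls.

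The members and lists were chosen with earlier results of these data known. The text names every called member, the uncalled member of each role with the highest mean CPM, and up to 3 called genes each way of each related list with at least 1 CPM. Other members, the 1.5-fold limit between replicates, the split of the libraries by replicate and the 4 promoter windows were chosen after values were seen, since no called member met the planned rule for printing windows. Promoter windows are RefSeq's. Replicates of a group differed by far more than counting noise.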

Additional observations from a re-analysis of the deposited data

How the results depend on the processing

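Of the 58 called results for named genes, 42 kept their call under every alternative they could be given, none reversed, and 66 values under alternatives missed the threshold. Of 15 uncalled named results 2 stayed as they were throughout. Leaving out each library in turn gave 2 to 3 members higher and 1 to 9 lower in E1 versus CN (1133 to 1369 and 743 to 1124 over all genes), 3 to 6 and 4 to 6 in E2 versus E0 (1569 to 2858 and 1765 to 3079), and 2 to 6 and 3 to 6 for the difference of responses (1177 to 1753 and 1538 to 2062). Uncalled log2 fold changes also changed direction in this way. In E1 versus CN they ran from -0.67 to 0.31 for Hmgcs1, -0.26 to 0.057 for Sc5d, -0.69 to 0.018 for Srebf2 and -1.65 to 0.31 for Scd2, each above 0 without CN replicate 1 alone. In E2 versus E0 Srebf2 ran from -0.16 to 0.00057. In the difference of responses Hmgcs1 ran from -0.82 to 0.16, Msmo1 from -0.73 to 0.46 and Srebf2 from -0.10 to 0.61, and Msmo1 stood at 0.0053 with library totals. The cause was not tested. With library totals 2 members were higher and 2 lower in E1 versus CN, where 3081 of all genes were called in either direction. DESeq2 gave 3 members higher and 3 lower there, with 3152 of all genes called. The main fit called 2749. For the difference DESeq2 gave 6 members higher and 5 lower, with 4393 of all genes called. The 4 libraries of each contrast alone gave 775 genes lower in E1 versus CN. In E2 versus E0 they gave 9 members higher and 12 lower (3143 and 3160 of all genes). Fewer libraries enter that fit. That alternative was not run for the difference, which needs all 8.

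Replicate numbers are shared by the groups and separate Y-linked from Xist transcripts in all 4, but no label says what they mark, and each comparison has only 2 pairs, so the block stayed an alternative. Deviations of same-numbered libraries from their group means correlated at 0.50 between CN and E1, 0.59 between E0 and E2, and 0.12 to 0.30 between experiments, across 15913 genes, which are not independent. With the replicate block (2 residual degrees of freedom) 4 members were higher and 19 lower in E1 versus CN (2786 and 2734 of all genes). In E2 versus E0 9 members were higher and 15 lower with the block (4145 and 4369 of all genes). For the difference 15 members were higher and 7 lower (3212 and 3609 of all genes). With 2 libraries a group, small changes cannot be told from spread.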
